A study of Canis lupus familiaris with 10 samples.

Results

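Chromatin accessibility was compared between control and C220-treated cells of 17-71, an established canine B-cell lymphoma line grown from lymph node. C220, which the sample labels call PR220, is a small molecule that selectively inhibits the arginine methyltransferase PRMT5. The comparison comprised 5 of the 10 libraries of the series, chosen by their labelled cell line: 3 control libraries (B1, B2 and B3) and 2 libraries from cells treated with 100 nM C220 (B4 and B6), all collected on day 4. The other 5 libraries were from CLBL-1, a further canine B-cell lymphoma line collected on day 2, with 2 control and 3 C220 libraries at the same dose. Both groups of 17-71 share the line and its culture conditions, each group therefore stands for a single cell line, and p-values measure the spread between these libraries, which the study describes as biological replicates while the labels do not tie them to separate cultures.

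PRMT5 places symmetric dimethyl marks on arginine residues of histones, where they are linked to repressed chromatin, and of many other proteins, among them the Sm proteins of the spliceosome. It is known in B-cell lymphoma for being overexpressed and for acting together with MYC and cyclin D1. In ATAC-seq a transposase inserts adapters into DNA that is free of nucleosomes, so that open promoters and enhancers give dense fragments, which are called as peaks.

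C220 libraries of 17-71 held fewer and narrower peaks than control libraries. In the number of peaks of at least 4-fold enrichment the groups overlapped, whereas at a −log10 p of at least 10 they did not. Sites called in every control and in neither C220 library outnumbered the reverse, and most of them were weak in the controls. With peak lists cut to equal length these counts were close, 691 against 630. A −log10 p of at least 10, which left fewer peaks in both C220 libraries than in any control, gave 2975 against 7. Of sites strong in the controls, 87.9% were called in both C220 libraries, which does not show that their height was kept. Among sites called in all 5 libraries, none passed a test of peak height after correction for multiple testing, a comparison that leaves out every site without a call in B4 or B6. The C220 libraries differed from each other, with B4 departing further from the controls than B6.

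Peaks numbered 44378, 33358 and 30943 in the controls B1 to B3, 22076 in the C220 library B4 and 27646 in B6. Both C220 libraries lay below every control. In such bulk libraries, fewer cells with an open site and a less open site in every cell cannot be told apart. The group means were 36226 ± 7162 (SD, n = 3) and 24861 ± 3939 (SD, n = 2), which differ by -31.4% (two-sided exact permutation test, p = 0.2). This test cannot give a p below 0.1 with 3 libraries against 2. Without B1 the difference was -22.7%. Peaks of at least 4-fold enrichment numbered 23100, 10529 and 10309 in the controls, 10968 in B4 and 9174 in B6, so that B1 alone stood apart (two-sided exact permutation test, p = 0.7). Peaks covered 46.3, 36.6 and 35.8 Mb in the controls, 18.8 Mb in B4 and 28.2 Mb in B6. The covered length thus separated the groups, with 39.6 ± 5.83 Mb (SD, n = 3) in control and 23.5 ± 6.64 Mb (SD, n = 2) in C220 libraries (two-sided exact permutation test, p = 0.1, the smallest possible).

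Wide peaks arise where neighbouring open stretches are joined by the caller. Peaks of 3000 bp or wider numbered 666, 572 and 700 in the controls and 137 and 316 in the C220 libraries B4 and B6. This was a difference of -64.9% with no overlap between the groups (two-sided exact permutation test, p = 0.1). The median peak width was 875, 946 and 990 bp in the controls, 714 bp in B4 and 872 bp in B6. The group means were 937 ± 58.0 bp (SD, n = 3) and 793 ± 112 bp (SD, n = 2), and most of the difference came from B4 (two-sided exact permutation test, p = 0.2). Without B4 the difference in median width was -65.0 bp instead of -144 bp.

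**Figure D1:**
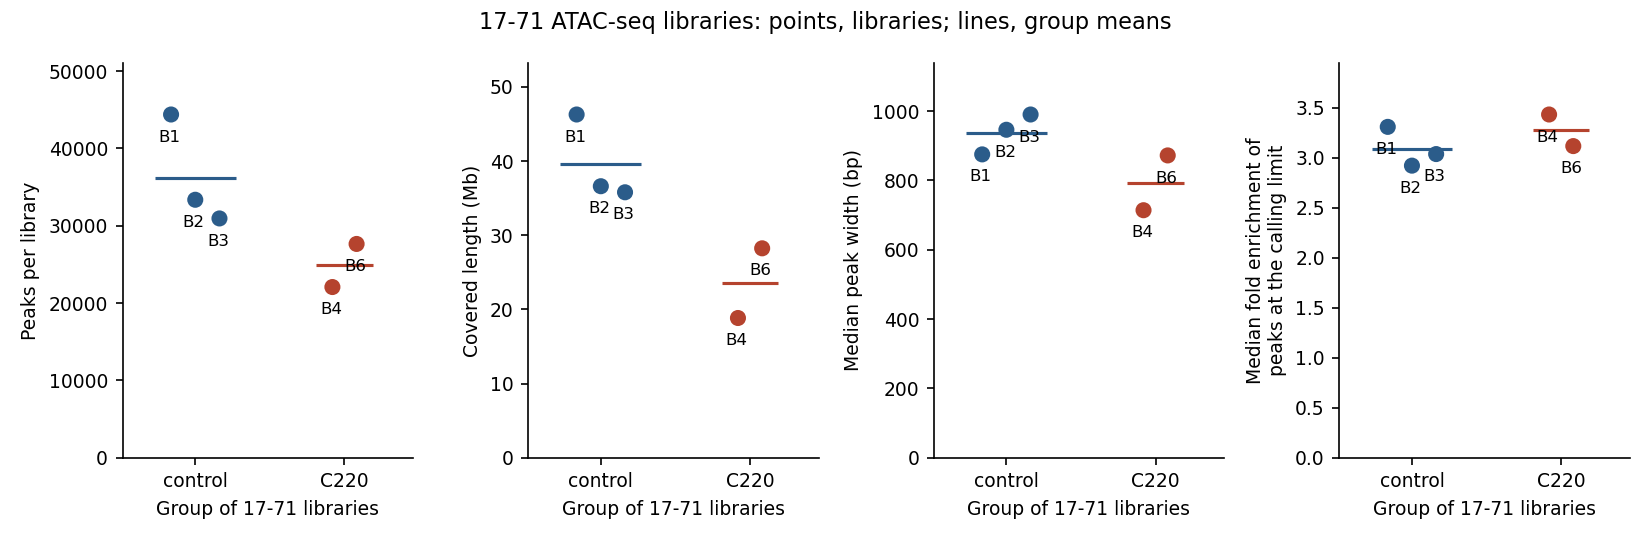
Peaks per library, covered length in Mb, median peak width in bp, and the median fold enrichment of peaks at the calling limit, each as one point per 17-71 library with the group mean as a line. In the first 3 panels both C220 libraries lie below every control, whereas at the calling limit the groups overlap.

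Peak lists carry no read depth, and a deeper library reaches the caller's cutoff at a lower fold enrichment, that is, at a lower ratio of fragment pileup to local background. The median fold enrichment of peaks at the calling limit, with a −log10 p between 5 and 6, was therefore read as a stand-in. It was 3.31, 2.92 and 3.04 in the controls, 3.43 in B4 and 3.12 in B6. B4 had the highest value, but the library with most peaks, B1, had the next highest, so this measure did not order the libraries by treatment (3.09 ± 0.199, SD, n = 3, against 3.27 ± 0.223, SD, n = 2, two-sided exact permutation test, p = 0.4). The median −log10 p over all peaks was 10.8, 9.67 and 9.64 in the controls and 8.07 and 8.48 in B4 and B6 (two-sided exact permutation test, p = 0.1). Depth and treatment cannot be told apart from the peak lists alone.

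To follow single sites, peaks of the 5 libraries were merged where they touched or overlapped. This gave 48847 regions, of which 17618 (36.1%) were called in all 5 libraries. Of the 26743 regions called in every control, 4812 were called in B6 but not in B4, 924 in B4 but not in B6, and 3389 in neither. The last set, called lost here, was 6.94% of all regions. The reverse set, gained, had calls in B4 and B6 but not in the controls and held 105 regions (0.215%). B1 alone contributed 8524 regions that no other library shared, against 1341 for B2, 786 for B3, 786 for B4 and 948 for B6. List length moved both counts: when every library was cut to its 20000 peaks of highest −log10 p, the lost and gained regions came to those 691 and 630. With peaks of a −log10 p of at least 10 they came to 2975 and 7. Those lists were of unequal length, with 23890, 16047 and 14828 peaks in the controls and 7908 and 10925 in B4 and B6. With B4 as the only C220 library 8204 regions were lost and 891 gained, and with B6 as the only one 4312 were lost and 1053 gained.

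The lost share was 17.9% below a smallest control fold enrichment of 2.5 and was highest just above it. Among regions whose smallest control fold enrichment was between 2.5 and 3, 24.0% were lost, and between 3 and 3.5 it was 20.6%. The share was 7.75% between 3.5 and 4, 2.67% between 4 and 4.5, and 0.606% between 4.5 and 5. Of 1920 regions between 5 and 6 only 2 were lost, and of the 639 regions at 6 or more none was. A tall site can lose height and still be called, so these shares do not measure change in height. By width, the lost share was 33.8% of those under 500 bp, 21.2% of those from 500 to 1000 bp, and 5.85% of those of 3000 bp or more.

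**Figure D2:**
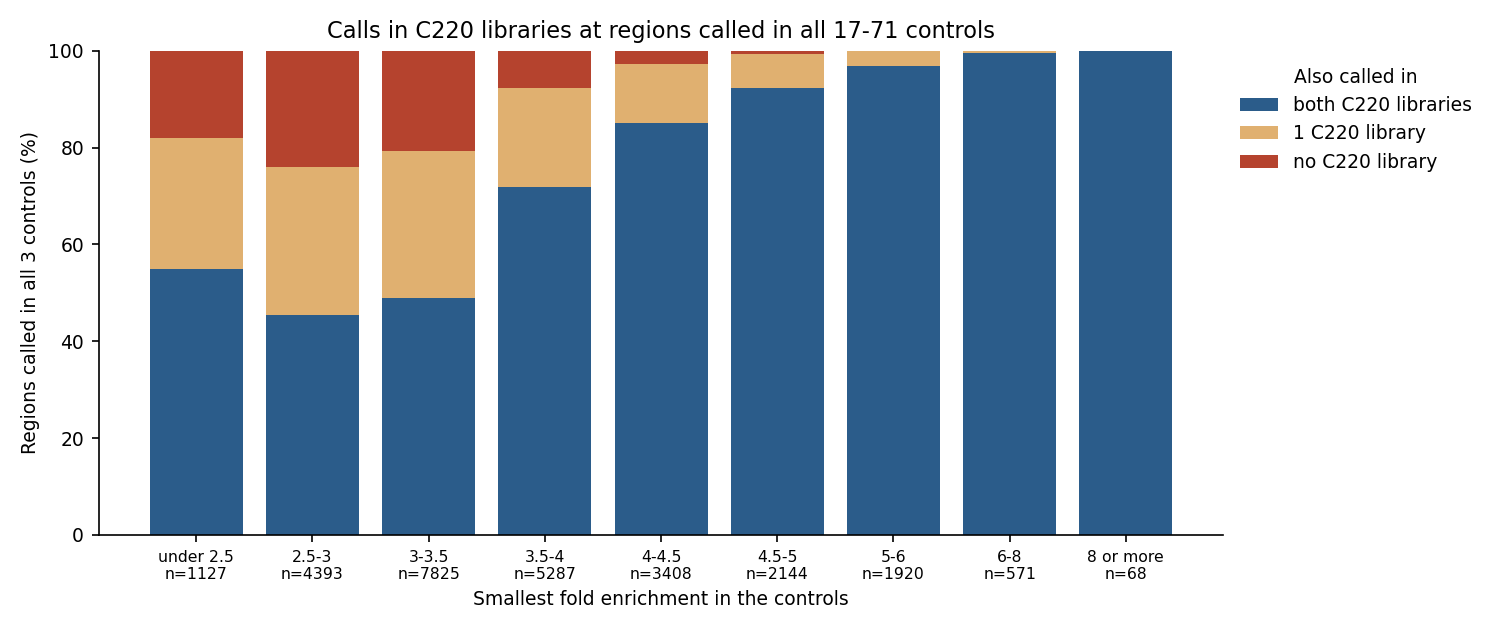
Share of the regions called in all 3 control libraries of 17-71 (%), by the smallest fold enrichment in those controls, that was also called in both, 1 or none of the C220 libraries, with the number of regions under each bar. The red part falls from 24.0% between 2.5 and 3 to 0.104% between 5 and 6.

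A region was next counted as strong when its fold enrichment was at least 3.79 in each library of a group. That value is the highest, over the 5 libraries, of the 95th percentile of fold enrichment among peaks at the calling limit, and B4 set it. Of 10079 strong control regions, 8858 (87.9%) were called in both C220 libraries, 942 (9.35%) in B6 only, 69 (0.685%) in B4 only and 210 (2.08%) in neither. Of 8850 strong C220 regions, 8724 (98.6%) were called in all 3 controls and 3 (0.0339%) in none. Most strong control regions that lacked a call in 1 or both C220 libraries lacked it in B4. With B4 as the only C220 library 1152 strong regions were lost and 131 gained, and with B6 as the only one 279 and 28, at the same threshold. Setting the threshold anew without B4 lowered it to 3.595 and gave 502 and 73. With the threshold at the median in place of the 95th percentile the counts were 653 and 18.

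How often a control call is met again was measured within the controls, by taking strong regions of 2 control libraries and reading them in the remaining one. The remaining control had a call at 98.5% to 99.9% of them. B6 had a call at 94.3% to 97.1% and B4 at 83.6% to 88.1% of the same regions. Both C220 libraries lay below every control at these regions, and the gap of B4 was the larger. The regions were chosen by control calls alone, which favours the remaining control, so the gap is no test of treatment. At regions between 4 and 4.5 in fold enrichment the remaining control was called at 98.6% to 99.9%, B6 at 92.5% to 96.4% and B4 at 78.6% to 85.5%. Between 6 and 8 the remaining control reached 99.2% to 100%, B6 99.6% to 100% and B4 98.6% to 99.4%, and the gap was nearly closed. In the other direction, strong regions of B4 and B6 were called in a control at 98.97% to 99.8%, with no further C220 library to set beside this.

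**Figure D3:**
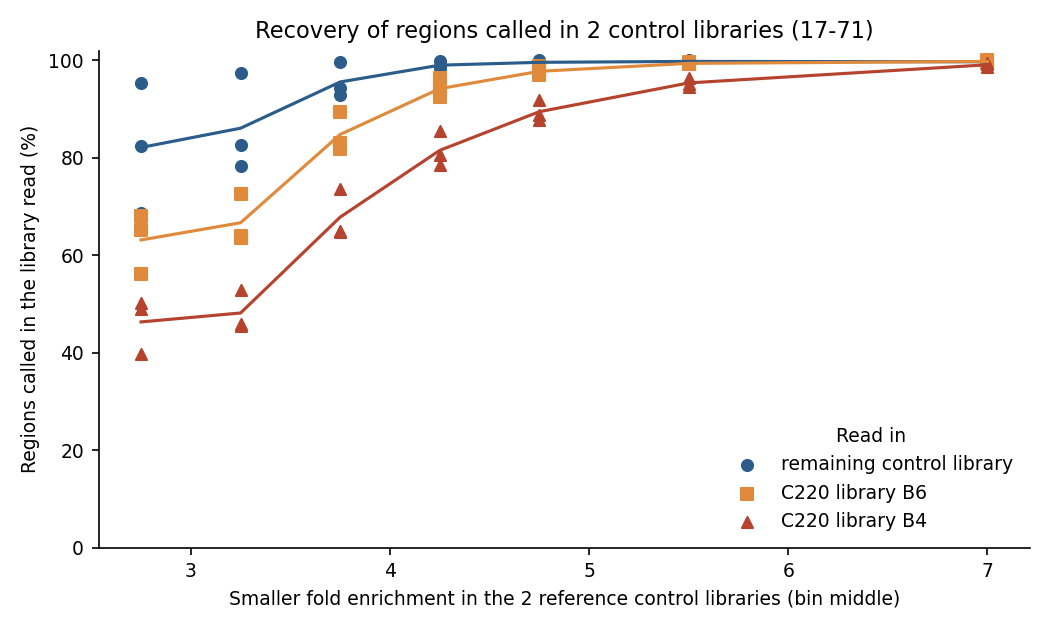
Percent of regions called in 2 control libraries that were also called in the remaining control, in B6 and in B4, against the smaller of the 2 reference fold enrichments (bin middle). Points are the 3 choices of reference pair and lines their mean: at every bin up to 6 the C220 libraries lie below the mean of the remaining control, with B4 lowest.

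The called stretch within a region was also compared, at regions called in all 5 libraries. The median covered length per shared region was 1123, 1099 and 1109 bp in the controls, 778 bp in B4 and 993 bp in B6. The controls lay within 24 bp of each other and both C220 libraries lay below them (difference of means -225 bp, two-sided exact permutation test, p = 0.1).

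The 8 strong lost regions with the highest control values show what such sites looked like. The first, on chromosome 27 from 43002869 to 43004420 in CanFam3.1, had a fold enrichment of 5.42, 5.13 and 5.91 in B1, B2 and B3 and no call in B4 or B6. A region on chromosome 2 from 43959534 to 43960199 had 5.26, 5.06 and 5.02, and one on chromosome 8 from 61382115 to 61383930 had 4.88, 5.47 and 4.88. All 3 were called in CLBL-1 as well, the first and the last in all 5 of its libraries. The region on chromosome 5 from 6498689 to 6499373 was the most uneven of the 8, with 8.20, 4.78 and 5.87 in B1, B2 and B3. CLBL-1 had it in 2 of 3 C220 libraries and in neither control. A region on chromosome 5 from 79412408 to 79413373 (4.84, 5.40 and 5.55) and one on chromosome 24 from 29334949 to 29335950 (5.94, 4.75 and 5.55) had no call in any CLBL-1 library. The remaining pair, on chromosome X from 90990588 to 90991563 (5.90, 4.66 and 4.92) and on chromosome 29 from 7365814 to 7368002 (4.72, 4.64 and 5.34), was called in every CLBL-1 library. None of these 8 regions is paired with a gene in the annotation held here.

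All 3 strong gained regions were modest in height. The region on chromosome 33 from 30905737 to 30906559 had a fold enrichment of 5.98 in B4 and 4.49 in B6. One on chromosome 11 from 11334691 to 11335379 had 4.13 and 4.25, and one on chromosome 17 from 400725 to 402635 had 4.24 and 4.09. No control of 17-71 had a call at any of them, and in CLBL-1 the sole call was in 1 control library at the region on chromosome 33.

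Lost strong regions were spread over the genome. Each of the 39 chromosomes held at least 1, and 3 pairs of them lay within 50000 bp of each other. As a share of a chromosome's strong control regions they were most frequent on chromosome 29 (9 regions, 8.91%), chromosome 19 (8 regions, 6.11%) and chromosome 32 (6 regions, 5.31%), against 2.08% over all. These are small counts and were picked out after all chromosomes had been seen.

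Sites were also read in CLBL-1. A CLBL-1 peak was present at 44.8% of all merged regions, at 63.1% of the regions called in all 5 libraries of 17-71, at 42.8% of lost regions and at 21.0% of gained regions. Among strong control regions the shares were 68.1% for those called in both C220 libraries and 52.4% (110 of 210) for those lost. Within CLBL-1, 2 of the 210 were called in both controls and in no C220 library, and 4 showed the reverse. Among all 10079 strong control regions these counts were 16 and 36, and among all 48847 merged regions 98 and 316. No test of these differences was made, and line and day of collection cannot be told apart.

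Peak height was compared at the 17618 regions called in all 5 libraries, on the log2 scale of fold enrichment after cyclic loess normalization. Since a call in both C220 libraries was required, 9125 of the 26743 regions called in every control were not tested, and a site that fell below the calling limit in either library could not enter. Across the 17618 regions the rank correlation of fold enrichment was 0.80 to 0.87 between controls, 0.73 between B4 and B6, 0.77 to 0.80 between B6 and a control and 0.62 to 0.65 between B4 and a control, a description over regions that are not independent. The normalized difference, C220 minus control, was between -0.30 and 0.31 for the middle 90% of regions, and its median was 0.00 by construction. No region passed a Benjamini-Hochberg FDR of 10% in limma (0.0% lower and 0.0% higher), and the lowest adjusted p was 0.138. At an unadjusted p below 0.05, there were 2288 regions (13.0%), 1110 lower and 1178 higher. An absolute log2 difference of at least 0.5 was seen at 190 regions and of at least 1 at none, and the median 95% interval reached 0.27 to either side. After normalization both C220 libraries lay below every control at 14.8% of regions and above every control at 15.5%. Without B6 or without B4 a lone C220 library remained, and limma took its spread from the controls. Such fits do not measure the spread between C220 libraries. Without B1 limma gave 0 lower and 3 higher, and with no normalization 2 and 2.

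Among the shared regions of smallest p, those lower in C220 were led by a site inside BNC2, a zinc finger protein gene, on chromosome 11 from 36948299 to 36948935. Its fold enrichment was 7.87, 5.83 and 6.999 in the controls and 4.02 and 3.49 in B4 and B6, and no CLBL-1 library had a call there. The log2 difference was -0.79 (SE 0.13, limma, Benjamini-Hochberg adjusted p = 0.138). A site upstream of CA14, a membrane-bound carbonic anhydrase gene, on chromosome 17 from 59501518 to 59502873 had 6.32, 5.23 and 6.37 in the controls and 3.31 and 3.41 in B4 and B6. It too was absent from CLBL-1, and its log2 difference was -0.72 (SE 0.13, limma, Benjamini-Hochberg adjusted p = 0.138). At both sites every C220 value lay below every control value, as the choice by smallest p nearly fixes. After normalization this held at 14.8% of all shared regions.

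The other 6 regions of this set have no paired gene and were called in every CLBL-1 library. The tallest, on chromosome 3 from 1154686 to 1155440, had 11.2, 7.18 and 7.78 in the controls and 5.19 and 5.08 in B4 and B6. The widest, on chromosome 7 from 80953439 to 80958962, had 3.35, 2.24 and 2.41 against 1.65 and 1.83. Despite these low values its −log10 p was 659, 299 and 359 in the controls and 50.7 and 134 in B4 and B6. This made it unlike the other regions of the set, and the cause was not tested. The log2 differences of the 8 ranged from -0.79 to -0.58.

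Higher values in C220 were led by a region on chromosome 12 from 32382615 to 32384478, with 5.06, 3.501 and 3.68 in the controls and 7.29 and 5.89 in B4 and B6. A region on chromosome 3 from 52584480 to 52586625 had 6.38, 4.78 and 3.91 against 9.48 and 7.58, the largest log2 difference of the 8 at 0.85 (SE 0.14, limma, Benjamini-Hochberg adjusted p = 0.138). Another, on chromosome 2 from 11368130 to 11370312, had 4.13, 3.69 and 3.52 against 5.48 and 5.61, and it alone of the 8 had no call in CLBL-1. The log2 differences of the 8 ranged from 0.55 to 0.85. With a width-weighted mean of all peaks in the region, that on chromosome 6 from 9372879 to 9376701 went from 0.71 to 0.32. Under the same setting, that on chromosome 12 from 2533474 to 2538006 went from 0.55 to 0.29. In all 8, B4 and B6 both lay above every control, which the choice by smallest p nearly fixes. After normalization 15.5% of all shared regions showed this. None of these 8 has a paired gene.

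**Figure D4:**
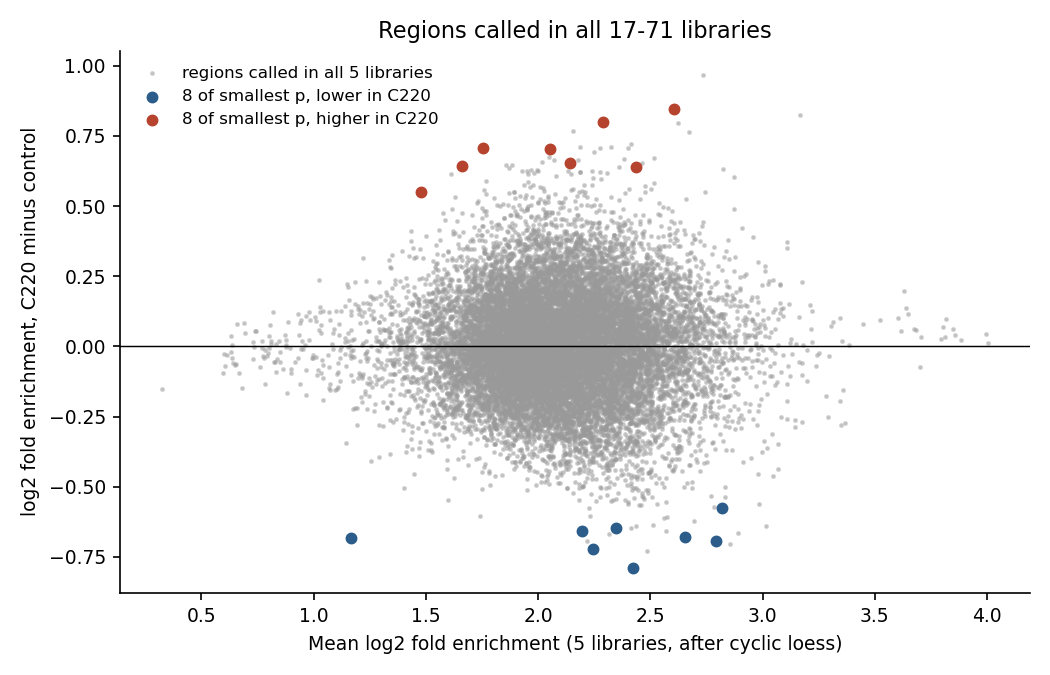
Log2 difference in fold enrichment, C220 minus control, against the mean log2 fold enrichment for the 17618 regions called in all 5 libraries, with the 8 regions of smallest p in each direction coloured. No point reaches a difference of 1 in either direction, and no region passed the FDR, but regions without a call in B4 or B6 are not in the plot.

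Gene names were available for few regions. They come from the study's own annotation of its merged regions, of which 1999 rows were held, those of smallest p in the study's test on these same libraries, so that which genes can be named is not independent of the treatment. A gene symbol was kept for 283 regions and 269 genes. Of these regions 106 were called in all 5 libraries, 41 in every control and no C220 library, 40 in every control and B6 only, 2 in every control and B4 only, 20 in B6 alone and 18 in B4 alone. Of the 41, only 3 had a fold enrichment of at least 3.79 in every control, so the others were not strong by the rule used here. No count over the named regions can be read as a result of treatment, since they were selected by it. The genes described next were grouped by role after their values had been seen, apart from members of the fixed lists.

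Of the fixed lists, the 9 PRMT genes, 5 partners of PRMT5 and 15 genes of Sm and splicing proteins had no member among the named regions. The MYC network had 2 of 12 members, MYC target genes 1 of 24, cytoskeleton and migration genes 2 of 15, p53 and cell cycle genes 2 of 22, the BCL2 family 2 of 14 and chromatin silencing and remodelling genes 1 of 20. No member of the BCR, PI3K and NF-kB list or of the housekeeping list had one. Of 31 B cell identity genes 1 was named, CCR7, and none of the fixed T cell, myeloid or stromal, endothelial and epithelial markers was. These lists are short and named regions few, so the labelled cell type could not be checked against its markers. Outside the lists, the start of CD163, a scavenger receptor gene of macrophages, was called in all 5 libraries of 17-71 and in none of CLBL-1. It had 3.76, 3.41 and 3.55 in the controls and 2.79 and 2.62 in B4 and B6 (log2 difference -0.42, SE 0.10, limma, Benjamini-Hochberg adjusted p = 0.22), and its part in other results was not tested. The start of MARCO, a further macrophage receptor gene, was called in B4 alone, at 3.53.

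MYC, the transcription factor that drives growth genes in many lymphomas, had a region that overlaps its end on chromosome 13 from 25204781 to 25208119. The fold enrichment was 3.40, 3.06 and 3.38 in the controls and 2.87 in B6, with no call in B4. Its −log10 p was 27.7, 21.5 and 25.2 in the controls and 8.10 in B6, and CLBL-1 had no call there. By the rule used here the region is not lost, since B6 kept it. MAX, the dimerization partner of MYC, had a site inside the gene that was nearly level, with 6.97, 6.27 and 6.02 in the controls and 5.97 and 6.18 in B4 and B6. Upstream of IPO4, an importin gene and MYC target, values were 5.26, 5.08 and 5.57 against 3.87 and 5.10, so that B4 stood apart from the other libraries.

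The actin-bundling protein of lymphocytes, plastin, is encoded by LCP1, and its locus held contrasting sites. A region inside the gene on chromosome 22 from 5010112 to 5011091 was called at 2.28, 1.91 and 2.07 in the controls and in neither C220 library. The region over the LCP1 start, from 5007308 to 5008447, was called in all 5, with 3.72, 3.58 and 3.21 in the controls and 4.19 and 3.88 in B4 and B6. There both C220 values lay above every control (log2 difference 0.24, SE 0.12, limma, Benjamini-Hochberg adjusted p = 0.40). CLBL-1 had a call at the start in all 5 libraries and none at the inner region.

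CORO1A, which encodes the actin regulator coronin of leukocytes, had a site upstream with 6.70, 6.46 and 5.48 in the controls and 3.87 and 5.32 in B4 and B6. Both C220 values were below every control (log2 difference -0.37, SE 0.16, limma, Benjamini-Hochberg adjusted p = 0.36). The difference was -0.64 without B6 and -0.08 without B4, each resting on a lone C220 library. ARPC5, a subunit of the Arp2/3 actin nucleator, had a region over its start that was called at 2.83, 3.76 and 3.52 in the controls and in neither C220 library, although every CLBL-1 library had it. A site inside RAC1, a small GTPase that steers actin, had 5.66, 4.82 and 4.61 against 4.37 and 3.16.

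Receptor and signalling genes, many but not all of them particular to B cells, showed several patterns. Of 11 such regions called in all 5 libraries, 7 were lower in C220 and 4 higher. Their median log2 difference was -0.07, against -0.001 over all 17618 shared regions. Since named regions were selected by the study's own test, this count is no result of treatment. CCR7, the chemokine receptor that guides B cells into lymph nodes, had a region over its start at 4.65, 4.93 and 4.82 in the controls and 4.34 and 4.18 in B4 and B6 (log2 difference -0.07, SE 0.14, limma, Benjamini-Hochberg adjusted p = 0.86). The start of STAP1, an adaptor in B-cell receptor signalling, had 4.97, 5.55 and 4.69 against 3.36 and 3.78 (log2 difference -0.41, SE 0.15, limma, Benjamini-Hochberg adjusted p = 0.31). A region downstream of CD200, a surface glycoprotein, was called at 3.82, 3.44 and 3.38 in the controls and in neither C220 library. Its −log10 p in the controls was only 6.34 to 7.52. At the start of IL10RA, a subunit of the interleukin receptor, the call was present in the controls at 3.09, 2.996 and 3.02, in B6 at 2.77 and absent in B4.

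In the class II histocompatibility region of chromosome 12, whose products present antigen on B cells, the start of DLA-DQA1 was called in all 5 libraries. It had 3.103, 2.85 and 2.74 in the controls and 4.28 and 3.42 in B4 and B6, a difference that did not pass the FDR (log2 difference 0.38, SE 0.11, limma, Benjamini-Hochberg adjusted p = 0.24). DLA-DRA had 3.32, 3.37 and 3.55 against 4.15 and 3.53 at its start, where the groups overlap. The start of HLA-DRB1, the tallest of these sites, had 6.32, 6.14 and 6.35 against 5.34 and 5.25, with both C220 values below every control (log2 difference -0.18, SE 0.13, limma, Benjamini-Hochberg adjusted p = 0.57). At the start of DLA-DOB the controls had 3.45, 3.29 and 3.18 and neither C220 library had a call. These genes belong to a family of close copies, so reads may have been shared between them.

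Genes of survival and the cell cycle were mostly represented by sites away from the start. A site inside MCL1, a survival factor of the BCL2 family, was called at 1.86, 1.86 and 1.85 in the controls and 1.95 in B6, and not in B4. Downstream of BCL2A1, a further member, values were 5.34, 4.51 and 4.31 against 4.18 and 4.80 (log2 difference 0.03, SE 0.13, limma, Benjamini-Hochberg adjusted p = 0.93, and -0.11 without B6). CCND1 and CCND2 encode D-type cyclins, which drive entry into the cell cycle. The site downstream of CCND1 had 4.06, 3.57 and 3.85 in the controls and 3.05 and 3.66 in B4 and B6, with overlap between the groups. A site inside CCND2 had 2.16, 2.08 and 2.12 against 2.21 and 1.88, where the C220 libraries lay on either side of the controls.

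The strong lost regions with a gene symbol were 3. One overlaps the end of DEPDC1B, a gene linked to cell division, on chromosome 2 from 47295398 to 47296802, with 4.39, 5.30 and 4.95 in the controls. One lies inside GALM, a sugar epimerase gene, on chromosome 17 from 30744783 to 30746526, with 4.24, 4.48 and 5.04. The last lies inside STRADB, a pseudokinase gene, on chromosome 37 from 10553271 to 10553863, with 4.47, 3.85 and 4.24. None of the 3 had a call in CLBL-1.

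Chromatin and RNA-processing genes completed the set. ARID1A, a subunit of the SWI/SNF remodeller, had 6.61, 6.36 and 6.55 in the controls and 5.25 and 6.79 in B4 and B6 at a site upstream. At a site inside ARID1A the call was kept in B4 at 3.48 and absent in B6, the reverse of MYC. The start of TCF4, a basic helix-loop-helix factor of B and dendritic cells, was called at 3.55, 3.21 and 3.55 in the controls and in neither C220 library. The same held for the start of MBNL1, a splicing regulator, at 2.95, 3.37 and 2.93, and for a site inside HNRNPU, an RNA-binding scaffold protein, at 2.81, 2.58 and 2.61, with a −log10 p in the controls of only 5.005 to 6.33. A further site inside MBNL1 was called at 2.77, 2.15 and 2.09 in the controls and at 3.17 in B6, above every control, with no call in B4. Upstream of TFAP2B, a developmental transcription factor, a tall site had 7.62, 6.95 and 7.36 in the controls and 5.94 in B6 and no call in B4. Calls in a single C220 library and in no control were found at 38 of the 283 named regions, against 3.55% of all merged regions. Of such sites, picked after their values had been seen, HMX1 had 3.12 and PAX1 3.14 in B6 alone, and LMX1B 3.82 and OLFM1 3.74 in B4 alone.

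**Figure D5:**
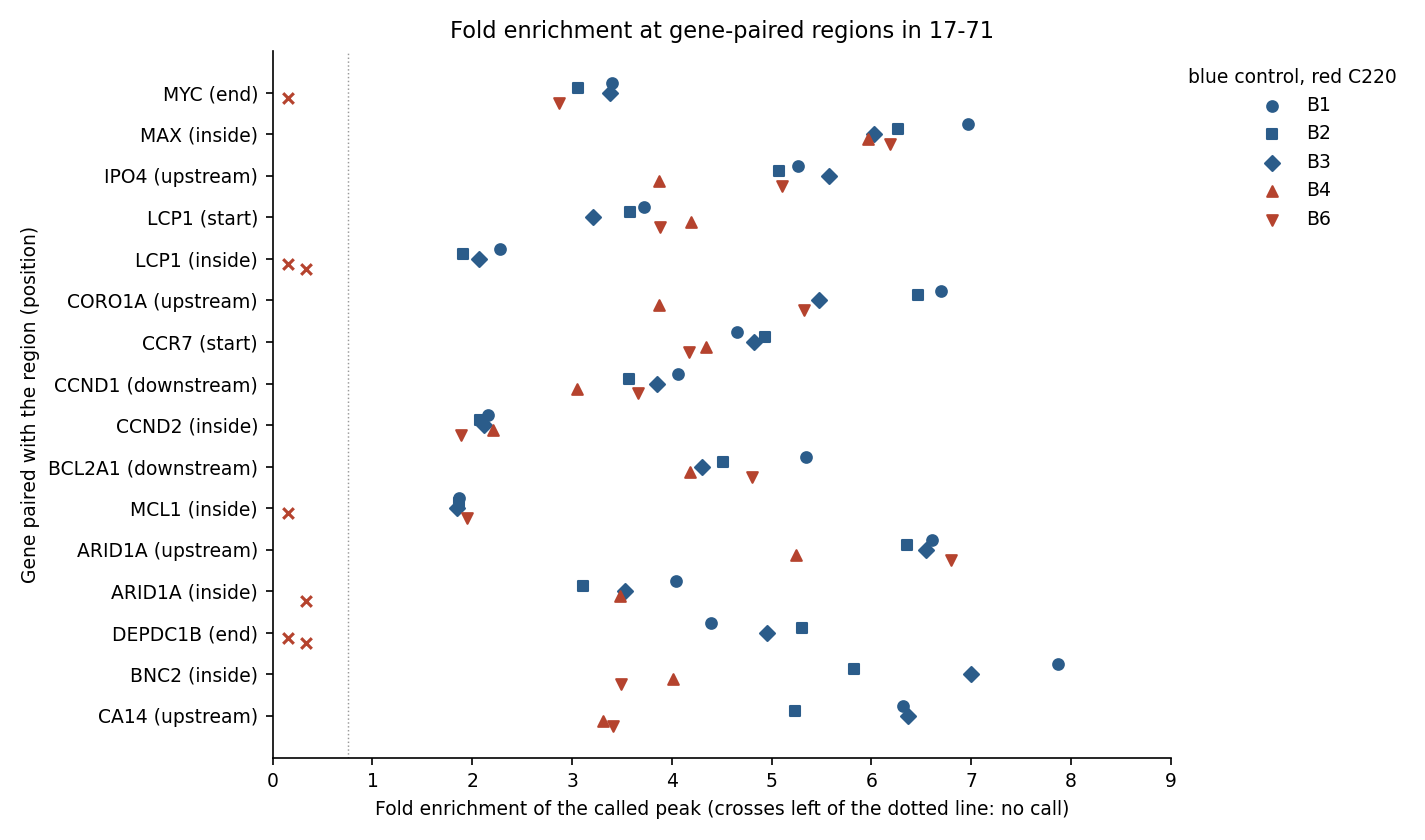
Fold enrichment of the called peak in each 17-71 library at selected gene-paired regions, with controls in blue and C220 libraries in red, and crosses left of the dotted line where a library had no call. LCP1 and ARID1A appear with 2 sites each that differ in their calls, and at MYC only B4 lacks the peak.

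To ask whether the response of peak height differed from that of the other line, the 9179 regions called in all 10 libraries were fitted in limma with a term for the difference between the treatment effects. At a Benjamini-Hochberg FDR of 10%, 0 regions had a lower effect in 17-71 than in CLBL-1 and 6 a higher one (0.0654%), while 1037 had an unadjusted p below 0.05. At all 6 the effect was above 0 in 17-71 (0.41 to 0.69 on the log2 scale) and below 0 in CLBL-1 (-0.72 to -0.24). Without B4 no region passed (limma, lowest Benjamini-Hochberg adjusted p = 0.20), and without B6 120 were lower and 171 higher. Where B4 or B6 was left out, a lone C220 library of 17-71 remained, and limma took its spread from the other groups. Line and day of collection cannot be told apart in this comparison.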

How the data were processed

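ATAC-seq peak lists of 5 libraries of 17-71, with 5 of CLBL-1 for comparison, were analysed. Per the study's methods and labels, the authors mapped the pairs with Bowtie2 2.2.4 against CanFam3.1 and called broad peaks with MACS2 at a p-value of 1e-05, per library, with no pooling and no input named. They removed samples judged outliers by the correlation of read counts, without naming them. The MACS2 version and duplicate removal: not given in the sources used here. Each deposited peak carries a fold enrichment (a ratio to local background) and its −log10 p-value and −log10 q-value, not scaled between libraries. Being averages over a peak, folds are compressed.

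Touching or overlapping peaks were merged, a library counting from 1 bp. A region's fold was that of the library's peak of largest −log10 p. Library values were compared by exact permutation, and shared regions in limma 3.58.1 (R 4.3.3) with an intensity trend, after tests on simulated data. The peak lists carry no read depth and the read counts of the study's supplementary table were not used, so no counting intervals are given. Regions were named by rule: the 8 strong lost and gained regions of highest weakest fold, the 8 shared regions of smallest p per direction, and genes of fixed lists. The other genes were chosen after their values had been seen. Gene symbols came from the study's annotation, whose test columns were not used. Members, lists and tests were chosen with earlier results of these data known. Recovery within controls and single C220 libraries were added after the data had been seen. Coordinates are 1-based. Python 3.11.15 with pandas 2.3.3 was used.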

Additional observations from a re-analysis of the deposited data

Results flagged for a closer look

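The treatment effect on peak height differed between 17-71 and CLBL-1 at 6 regions called in all 10 libraries, by the interaction term of the limma fit (Benjamini-Hochberg FDR of 10%). Each is given with the difference of log2 effects, 17-71 minus CLBL-1. The first, on chromosome 6 from 42424775 to 42426407, had a difference of 1.33 (95% interval 0.95 to 1.71), with 4.87, 4.34 and 4.08 in the controls of 17-71 and 7.59 and 5.51 in B4 and B6. In CLBL-1 the same region had 6.44 and 7.56 in the controls and 4.39, 4.19 and 4.19 in the C220 libraries, so the groups did not overlap in either line and moved in opposite directions. The other differences were 0.93 on chromosome 8 from 39464244 to 39466211, 0.91 on chromosome 37 from 14713335 to 14715253, 0.90 on chromosome 27 from 17427544 to 17430279, 0.98 on chromosome 26 from 23561018 to 23564533 and 0.85 on chromosome 8 from 3325380 to 3329391. None has a paired gene. The adjusted p of the 6 lay between 0.024 and 0.091 in limma, and without B4 none of 10446 regions called in the remaining libraries passed.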

How the results depend on the processing

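The counts of lost and gained regions moved with the lists. Lost regions numbered 691 with lists of 20000 peaks, 3714 to 8204 on leaving out 1 library, against 3389, and were within 1.5 times under the other settings. Gained regions numbered 7 at a −log10 p of at least 10, 630 with lists of 20000 peaks and 122 to 1053 on leaving out 1 library, against 105. Strong lost regions numbered 653 and gained 18 with the guard fold at the median of the band, and 229 to 1152 and 4 to 131 on leaving out 1 library. At an unchanged guard fold they numbered 1152 and 131 with B4 as the only C220 library and 279 and 28 with B6. Of shared regions, limma with no normalization called 2 lower and 2 higher, and leaving out 1 library gave 0 to 132 lower and 0 to 256 higher, the highest without B6. The interaction gave 2 lower and 12 higher under quantile normalization, and 0 to 120 lower and 0 to 171 higher on leaving out 1 of the 10 libraries. Where a lone library remained in a group, limma takes its spread from the others.

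Of 25 named shared regions, 8 of 212 values under alternatives changed sign, all at list genes with differences near 0: with median centring CCND2 became 0.031 and MAX 0.0075, with no normalization BCL2A1 became -0.068, and on leaving out 1 library CCND1 ranged from -0.38 to 0.060, ARID1A from -0.30 to 0.20, MAX from -0.10 to 0.085, IPO4 from -0.39 to 0.089 and BCL2A1 from -0.11 to 0.18, the upper ends without B4 and the lower without B6. The cause was not tested. Another 15 values passed the FDR, 13 of them without B6.

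Peak numbers, widths and folds at the calling limit kept their direction in every alternative run, but the fold at the limit, higher by 0.186 in C220, differed by 0.028 without B4, 0.102 without B2, 0.295 without B1 and 0.343 without B6. No paired analysis was possible because the labels give the libraries no shared replicate numbers, and the numbers used here only name libraries in order. The share of regions at promoters was not run, since the study's annotation is held only for regions chosen by its own test. Depth, which the lists lack, limits what a missing call means.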
